A study of Mus musculus with 12 samples.

Results

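The skin's water barrier depends on acylceramides, and the 9 genes described here encode enzymes and a transporter that make them, export them or bind them to the surface of the dead outer cells. The genes were Sptlc3, Degs2, Cers3, Cyp4f39, Pnpla1, Ugcg, Abca12, Alox12b and Aloxe3. They were chosen by symbol, and 9 of 9 were present among the 14533 genes of the deposited count table. RNA came from scrapings of frozen, non-lesional dorsal epidermis of 6 WT and 6 Pparg-/-epi mice on a C57BL/6 background, all untreated. Every mouse carried floxed Pparg on both alleles. The WT mice had no Cre (Cre-/-), whereas the Pparg-/-epi mice carried Cre driven by the Cytokeratin14 promoter (Cre+/-). That promoter is active in basal keratinocytes of the interfollicular and follicular epidermis, so cells of the dermis and immune cells of the Pparg-/-epi mice kept the floxed gene. Scraping went on until the vascular bed under the epidermis was reached, so superficial dermis was included. The WT group held 3 female and 3 male mice, and the Pparg-/-epi group held 4 female and 2 male mice, aged 8 to 13 weeks by their labels. Each mouse gave 1 library. Replicates 1 to 6 were WT and replicates 7 to 12 were Pparg-/-epi.

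Acylceramides are ceramides with a very long acyl chain whose far end is hydroxylated and then joined to linoleic acid. Their synthesis joins a long-chain base (Sptlc3) to a very long chain hydroxylated at its far end (Cyp4f39), which yields the ceramide (Cers3). Degs2 acts on dihydroceramides, and the linoleate ester is placed last (Pnpla1). The lipids are stored as glucosylceramides (Ugcg), carried into lamellar granules (Abca12) and oxidized by lipoxygenases (Alox12b, Aloxe3), after which part of them is bound to proteins of the cornified envelope as the corneocyte lipid envelope. Inherited loss of several of these genes causes ichthyosis, a disorder of dry, scaling skin. PPARγ, the product of Pparg, is a nuclear receptor for fatty acids and their derivatives, and it binds DNA together with RXR at repeats of the hexamer AGGTCA.

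Among the 9 genes, 3 were altered between genotypes and 6 were not. Here "altered" means an adjusted p below 0.05 with a log2 fold change of at least 0.6 in either direction. Sptlc3 fell to 0.528 of its WT level. Pnpla1 rose 1.64-fold, and Degs2, a gene with few reads in WT scrapings, rose 7.38-fold. Cers3, Cyp4f39, Ugcg, Abca12, Alox12b and Aloxe3 did not pass the test. Over all genes 10.3% were altered, with 5.19% raised and 5.08% reduced. The median log2 fold change was 0.07 over the 9 genes.

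The promoters of the 3 altered genes and of Cers3 are shown, since the comparison asks what deletion of a DNA-binding receptor does to these genes. Each window runs from 250 bases before to 50 bases after the RefSeq start (build GRCm38.p6), 5′ to 3′ on the gene's strand. Capitals mark the matches found on either strand to 6 motifs. These were the receptor hexamer named above, the PPAR and RXR element DR1 (a repeat of that hexamer), the element TGANTCA bound by AP-1, the Sp1 element GGGCGG known as the GC box, the core promoter element TATAAA bound by the general factor TFIID, and the element CCAAT bound by the factor NF-Y. A match on the opposite strand appears as its reverse complement. Of the 9 genes, 8 had an entry, and Aloxe3 had none.
Pnpla1, chr17:28858161-28858460, plus strand: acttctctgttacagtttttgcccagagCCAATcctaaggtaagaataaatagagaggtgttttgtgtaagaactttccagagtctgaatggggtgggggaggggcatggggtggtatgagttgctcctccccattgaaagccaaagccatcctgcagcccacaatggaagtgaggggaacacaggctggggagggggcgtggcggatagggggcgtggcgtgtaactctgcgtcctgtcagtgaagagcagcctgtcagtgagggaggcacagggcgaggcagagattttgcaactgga
Sptlc3, chr2:139493663-139493962, plus strand: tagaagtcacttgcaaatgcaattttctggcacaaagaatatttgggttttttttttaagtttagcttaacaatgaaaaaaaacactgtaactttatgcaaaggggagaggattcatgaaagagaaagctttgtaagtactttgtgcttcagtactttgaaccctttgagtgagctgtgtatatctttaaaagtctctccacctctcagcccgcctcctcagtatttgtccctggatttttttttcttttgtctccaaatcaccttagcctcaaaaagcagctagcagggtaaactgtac
Degs2, chr12:108702257-108702556, minus strand: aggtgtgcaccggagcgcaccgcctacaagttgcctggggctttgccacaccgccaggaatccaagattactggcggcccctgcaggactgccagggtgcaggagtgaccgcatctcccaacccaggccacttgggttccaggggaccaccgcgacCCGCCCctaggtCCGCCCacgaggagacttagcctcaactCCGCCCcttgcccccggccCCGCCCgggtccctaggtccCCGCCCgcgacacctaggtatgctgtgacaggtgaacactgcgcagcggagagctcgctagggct
Cers3, chr7:66743254-66743553, plus strand: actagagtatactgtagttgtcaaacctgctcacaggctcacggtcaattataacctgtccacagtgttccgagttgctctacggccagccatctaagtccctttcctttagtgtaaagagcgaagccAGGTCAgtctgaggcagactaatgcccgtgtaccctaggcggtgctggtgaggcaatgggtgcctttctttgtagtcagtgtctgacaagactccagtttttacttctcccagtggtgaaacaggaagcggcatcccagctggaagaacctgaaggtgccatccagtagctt

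The 3 altered genes had unlike promoter windows. The Pnpla1 window held 1 CCAAT match, near its far end from the start. The Degs2 window held 5 GC boxes on the opposite strand, a GC content of 67.7% and 21 CpG pairs. The Sptlc3 window held no match to any of the 6 motifs, with a GC content of 37.3% and 1 CpG pair. Over the 32851 mouse promoter windows of the same length, the median GC content was 52.7% and the median number of CpG pairs was 7. AGGTCA was found in 1 of the 8 windows, that of Cers3, at position -122, and in 16.3% of all windows. DR1 was found in 0 of the 8 and in 0.0396% of all windows. The GC box was present in 3 of the 8 (Alox12b, Degs2 and Ugcg) against 35.7% of all windows, and CCAAT in 1 of the 8 against 37.4%. AP-1 and TATAAA were in 0 of the 8, against 7.81% and 13.6% of all windows. These letters describe the windows only, since no binding was measured.

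Levels are given as CPM, which adjusts counts for library size (here with TMM factors), and as RPKM, which divides by summed exon length, where genes are compared with each other. The libraries held 10120840 to 16947632 counted reads in WT mice and 11272135 to 18851255 among Pparg-/-epi mice (two-sided exact permutation test of the mean, p = 0.965). The RNA integrity number (RIN) was 6.88 ± 1.03 (SD, n = 6) in WT and 7.55 ± 1.07 (SD, n = 6) among Pparg-/-epi mice (two-sided exact permutation test, p = 0.31). Pparg itself had 5 to 269 counts in WT and 16 to 107 in Pparg-/-epi libraries, with a log2 fold change of -0.10 (SE 0.71, adjusted p = 0.949). Counts summed over the whole gene therefore did not tell the genotypes apart. The keratins of the scraped tissue were present in all libraries. The 6 suprabasal keratinocyte markers, Krt10 among them, summed to 17604 to 53844 CPM in WT and 25673 to 52757 CPM among Pparg-/-epi mice. Of these, 0 of 6 were altered, against 10.3% of all genes. Their log2 fold changes ran from -0.60 (Dsg1a, just short of the fold threshold) to 1.02 (Krt1). In bulk RNA, fewer cells of a type and less RNA per cell cannot be told apart.

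The first enzyme of the pathway is serine palmitoyltransferase, which joins serine to a fatty acyl-CoA, and Sptlc3 encodes an alternative catalytic subunit of it. Sptlc3 (chr2:139493920-139637674, plus strand) ranged from 109 to 232 CPM in the 6 WT mice, with a median of 207. In the 6 Pparg-/-epi mice it ranged from 63.2 to 121 CPM, with a median of 101. The groups overlapped, as 3 of the 6 Pparg-/-epi mice (114, 116 and 121 CPM) lay above the lowest WT mouse. The group means were 186 ± 55.4 CPM and 98.4 ± 22.4 CPM (SD, n = 6 each). Sptlc3 fell by 0.92 on the log2 scale (SE 0.22, 95% interval -1.39 to -0.45, adjusted p = 0.0131). The other catalytic subunit, Sptlc2, did not pass the test (0.22 on the log2 scale, SE 0.09, adjusted p = 0.104), nor did the shared subunit Sptlc1 (0.01, SE 0.10, adjusted p = 0.979). Within each mouse, Sptlc3 counts were 3.06 times those of Sptlc2 on average in WT and 1.39 times among Pparg-/-epi mice. The log2 ratio ran from 0.87 to 2.01 in WT and from -0.04 to 0.83 among Pparg-/-epi mice, so the groups did not overlap. The difference was -1.12 (two-sided exact permutation test, p = 0.00216, the smallest that 6 against 6 mice can give, adjusted p = 0.00758 over the 7 ratios tested here). A ratio within a library does not depend on how libraries are scaled.

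Sptlc3 values are also given by breeding number, and a dependence of the genotype difference on it was not tested. The mouse names begin with a breeding number, and WT replicates 1 and 2 and Pparg-/-epi replicates 7 to 10 carried the earlier ones, whereas WT replicates 3 to 6 and Pparg-/-epi replicates 11 and 12 carried the later ones. Earlier and later stand for lower and higher numbers, a division made here without breeding dates. WT replicates 3 to 6 all shared 1 breeding number, and Pparg-/-epi replicates 11 and 12 shared another. Among the later mice, number and genotype therefore cannot be told apart. The only number found in both genotypes was that of WT replicate 2 and Pparg-/-epi replicate 10. Among the earlier mice Sptlc3 was 109 and 129 CPM in WT and 63.2 to 121 CPM among Pparg-/-epi mice, a ratio of means of 0.758. Among the later mice it was 185 to 232 CPM in WT and 114 and 116 CPM among Pparg-/-epi mice, a ratio of 0.522. WT Sptlc3 was thus lowest in the pair of earlier WT mice, where the genotypes overlapped, and the genotypes were apart among the later mice. With the earlier and later numbers as blocks the log2 fold change was -0.67 (adjusted p = 0.0176). These blocks do not adjust for the single breeding numbers. RIN also moved with Sptlc3. In a fit with genotype and RIN, Sptlc3 changed by -0.30 (log2) per RIN unit (SE 0.09, adjusted p = 0.0469), and the genotype difference was -0.70 (adjusted p = 0.0166). A RIN coefficient passed the same threshold in 13.1% of all genes. With the breeding blocks or with RIN in the fit, the Sptlc3 difference was smaller and stayed past both thresholds.

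Degs2 encodes the enzyme that hydroxylates dihydroceramides to make phytoceramides. Degs2 (chr12:108686792-108702306, minus strand) had 79, 107, 5, 2, 4 and 7 counts in WT replicates 1 to 6. It had 449, 269, 254, 106, 240 and 77 counts in Pparg-/-epi replicates 7 to 12. In CPM the WT mice ran from 0.134 to 5.68 with a median of 0.487, and the Pparg-/-epi mice from 6.61 to 23.4 with a median of 15.8. The groups did not overlap in CPM, which held for 2 of the 9 genes (Degs2 and Pnpla1) and for 7.9% of all genes. The means were 2.03 ± 2.60 CPM and 15.4 ± 6.70 CPM (SD, n = 6 each), and Degs2 rose by 2.88 on the log2 scale (SE 0.78, 95% interval 1.20 to 4.57, adjusted p = 0.0257). Even so it remained the least abundant of the 9 genes, at 4.30 ± 1.87 RPKM among Pparg-/-epi mice.

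The WT mice fell into separate levels of Degs2 by breeding number. The 2 earlier WT mice had 5.05 and 5.68 CPM, whereas the 4 later ones had 0.134 to 0.533 CPM. The Pparg-/-epi mice did not divide this way, with 8.82 to 23.4 CPM among the earlier and 6.61 and 21.7 CPM among the later mice. The ratio of means was accordingly 2.98 among the earlier and 39.8 among the later mice, the latter resting on 2 to 7 counts per WT library. By their labels the earlier WT mice were also younger, at 8 and 9 weeks against 12 or 13 weeks. Another sheet of the study gives a different age for WT replicate 2 and for Pparg-/-epi replicate 10, so little can be read from age here. The same WT mice had the highest WT values of RIN (7.4 and 8.6), of summed sebocyte markers (629 and 1083 CPM) and of summed endothelial markers (54.4 and 102 CPM, against 4.34 to 26.9 CPM in the other 4). The fibroblast, T cell, and macrophage and neutrophil sums of the WT group were also highest in these 2 mice. Among Pparg-/-epi mice the endothelial sums were 50.8 to 160 CPM in the 4 mice with the most Degs2, which were the females. They were 22.7 and 28.9 CPM in the other 2, the males. The part of these measures in the Degs2 values was not tested. With the breeding blocks the log2 fold change was 3.12 (adjusted p = 0.00649), and with the labels' age in the fit it was 4.00 (adjusted p = 0.0108). Both female and male Pparg-/-epi mice lay above all WT mice. The females had 15.4 to 23.4 CPM and the males 6.61 and 8.82 CPM. The call of Degs2 was lost on leaving out any of WT replicate 3 or Pparg-/-epi replicate 7, 9 or 11, with adjusted p up to 0.0591.

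The gene next to Degs2 limits how its reads can be assigned. Evl, on the opposite strand, overlaps Degs2 by 1724 bases in the deposited annotation, and 8.14% of the 75-base stretches of Degs2 transcripts also occurred in Evl. Evl had 9.66 ± 4.38 CPM in WT and 15.5 ± 6.20 CPM among Pparg-/-epi mice (SD, n = 6 each; log2 fold change 0.68, SE 0.31, adjusted p = 0.159). Whether counting used strand is not given in the sources used here, so reads from the overlap cannot be told apart. Degs1, the dihydroceramide desaturase that acts on the same substrate, had 93.1 ± 15.4 CPM in WT and 130 ± 13.3 CPM among Pparg-/-epi mice (SD, n = 6 each). Its log2 fold change of 0.48 (SE 0.11, adjusted p = 0.0124) passed the p threshold and not the fold threshold. The Degs2 to Degs1 count ratio averaged 0.0238 in WT and 0.120 among Pparg-/-epi mice. Its log2 difference was 3.49 (two-sided exact permutation test, p = 0.0108, adjusted p = 0.0189), with overlapping groups.

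Cers3 encodes the ceramide synthase that uses very long acyl chains and supplies the ceramide of acylceramides. Cers3 (chr7:66743504-66823692, plus strand) ran from 84.9 to 188 CPM in WT with a median of 150, and from 103 to 165 CPM among Pparg-/-epi mice with a median of 155. The Pparg-/-epi range lay inside the WT range. The log2 fold change was -0.06 (SE 0.18, 95% interval -0.45 to 0.33, adjusted p = 0.863), so the interval left room for changes of up to 1.26-fold higher and down to 0.732 of WT. Cers4, a ceramide synthase of skin appendages, fell from 71.6 ± 56.4 to 13.7 ± 5.12 CPM (SD, n = 6 each; log2 fold change -2.38, SE 0.54, adjusted p = 0.0112). Cers3 counts were 4.90 times those of Cers4 on average in WT and 11.9 times among Pparg-/-epi mice. That ratio differed by 1.91 on the log2 scale (two-sided exact permutation test, p = 0.0476), and after adjustment over the 7 ratios it did not pass (adjusted p = 0.0667).

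Cyp4f39 encodes the cytochrome P450 that hydroxylates the far end of the acyl chain. Cyp4f39 (chr17:32452723-32493320, plus strand) ran from 59.3 to 141 CPM in WT with a median of 108, and from 58.1 to 111 CPM among Pparg-/-epi mice with a median of 86.7. The ranges overlapped for most mice. The log2 fold change was -0.29 (SE 0.19, 95% interval -0.69 to 0.12, adjusted p = 0.34). Among the earlier mice the ratio of means was 1.03, and among the later ones it was 0.767.

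Pnpla1 encodes the transacylase that places linoleic acid on the hydroxylated ceramide, the step that completes an acylceramide. Pnpla1 (chr17:28858411-28890308, plus strand) was the steadiest of the 9 genes in WT mice, at 71.3 to 95.2 CPM with a median of 87.6. In Pparg-/-epi mice it ran from 107 to 158 CPM with a median of 146. Every Pparg-/-epi mouse was above every WT mouse. The means were 86.1 ± 8.34 and 141 ± 18.8 CPM (SD, n = 6 each), and Pnpla1 rose by 0.72 on the log2 scale (SE 0.10, 95% interval 0.49 to 0.94, adjusted p = 0.000965). The ratio of means was 1.68 among the earlier and 1.73 among the later mice, and 1.66 in females and 1.65 in males. The Pnpla1 difference was thus of like size in each of these splits.

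Pnpla2 encodes adipose triglyceride lipase, a relative of Pnpla1, and Abhd5 a cofactor that works with both. Pnpla2 showed a log2 fold change of -0.10 (SE 0.14, adjusted p = 0.693) and Abhd5 one of 0.05 (SE 0.17, adjusted p = 0.895). Pnpla1 counts were 1.73 times those of Pnpla2 on average in WT and 2.92 times among Pparg-/-epi mice. The log2 ratio ran from 0.31 to 1.12 in WT and from 1.21 to 1.74 among Pparg-/-epi mice, again without overlap. It differed by 0.78 (two-sided exact permutation test, p = 0.00216, adjusted p = 0.00758). Of the 75-base stretches of Pnpla1 transcripts, 12.1% also occurred in other transcripts, those of the antisense gene Pnpla1os among them, and reads of these stretches cannot be told apart without strand.

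**Figure D1:**
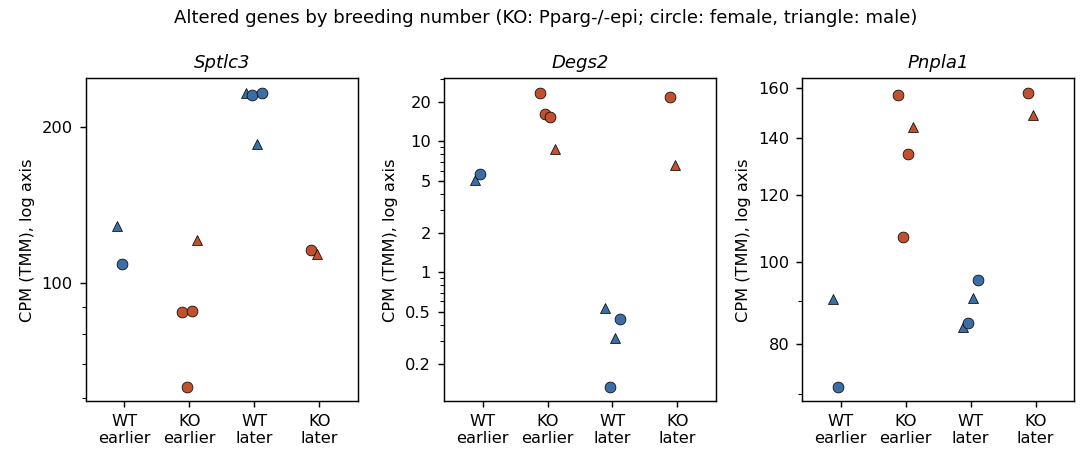
Sptlc3, Degs2 and Pnpla1 in each of the 12 mice, in CPM after TMM scaling on a log axis, divided by earlier and later breeding number and by genotype (KO, Pparg-/-epi; circles, females; triangles, males). The 2 earlier WT mice stand at 5.05 and 5.68 CPM of Degs2 and at 109 and 129 CPM of Sptlc3, whereas Pnpla1 separates the genotypes in both parts.

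Ugcg encodes glucosylceramide synthase, which adds the sugar that lets acylceramides be stored. Ugcg (chr4:59189550-59222833, plus strand) ran from 148 to 267 CPM in WT with a median of 198, and from 140 to 275 CPM among Pparg-/-epi mice with a median of 203. The groups covered almost the same range. The log2 fold change was 0.03 (SE 0.18, 95% interval -0.37 to 0.42, adjusted p = 0.943). Sgms2, a sphingomyelin synthase that competes for ceramide, had a log2 fold change of -0.36 (SE 0.27, adjusted p = 0.412). The Ugcg to Sgms2 ratio differed by 0.36 on the log2 scale (two-sided exact permutation test, p = 0.424, adjusted p = 0.495).

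Abca12 encodes the transporter that moves glucosylceramides into lamellar granules. Abca12 (chr1:71243090-71414910, minus strand) had the most reads of the 9 genes, with 404 to 682 CPM in WT (median 514) and 418 to 723 CPM among Pparg-/-epi mice (median 513). The medians were nearly equal and the ranges overlapped. The log2 fold change was 0.07 (SE 0.16, 95% interval -0.27 to 0.41, adjusted p = 0.819), which was the narrowest interval among the 6 genes that were not altered. Abca1, the cholesterol exporter of the same family, had a log2 fold change of -0.19 (SE 0.45, adjusted p = 0.827). The Abca12 to Abca1 ratio differed by -0.09 on the log2 scale (two-sided exact permutation test, p = 0.879, adjusted p = 0.879).

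The lipoxygenases Alox12b and Aloxe3 oxidize the linoleate of acylceramides in turn. The genes lie side by side on chromosome 11 and on the same strand, Aloxe3 at chr11:69126377-69149115 and Alox12b at chr11:69157072-69169791, with 7956 bases between them. Alox12b ran from 70.1 to 194 CPM in WT (median 152) and from 114 to 276 CPM among Pparg-/-epi mice (median 208). Aloxe3 ran from 88.1 to 213 CPM in WT and from 102 to 269 CPM among Pparg-/-epi mice, with a median of 172 in each group. Neither gene separated the groups. The log2 fold change of Alox12b was 0.46 (SE 0.26, 95% interval -0.10 to 1.02, adjusted p = 0.261). That of Aloxe3 was 0.10 (SE 0.27, 95% interval -0.47 to 0.67, adjusted p = 0.845).

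The balance between the neighbouring lipoxygenases differed although neither was altered alone. Aloxe3 counts were 1.14 times those of Alox12b on average in WT and 0.853 times among Pparg-/-epi mice. The log2 ratio ran from -0.18 to 0.35 in WT mice (median 0.22) and from -0.58 to 0.02 among Pparg-/-epi mice (median -0.18). The groups overlapped, as WT replicate 5 was at -0.18 and Pparg-/-epi replicate 12 at 0.02. The difference was -0.42 (two-sided exact permutation test, p = 0.00866, adjusted p = 0.0189). It was -0.56 among the earlier and -0.22 among the later mice, and -0.57 in females and -0.20 in males. In females the groups did not overlap, whereas in males they did.

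Both lipoxygenases had higher values in males, without passing the adjusted threshold. In a fit with genotype and sex, males exceeded females by 0.59 on the log2 scale for Alox12b (SE 0.21, unadjusted p = 0.016 and adjusted p = 0.279 by edgeR) and by 0.62 for Aloxe3 (SE 0.21, unadjusted p = 0.0129, adjusted p = 0.279). In that fit 2 of the 14533 genes passed the adjusted threshold and 2340 an unadjusted p below 0.05. For the other 7 genes the adjusted p of sex ran up to 0.857. The genotype difference was also tested for a dependence on sex. By edgeR, 0 of all genes passed after adjustment and 741 had an unadjusted p below 0.05, and for the 9 genes the adjusted p ran from 0.895 to 0.997. For Aloxe3 the interaction was 0.51 on the log2 scale (SE 0.42), the difference in males minus that in females.

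**Figure D2:**
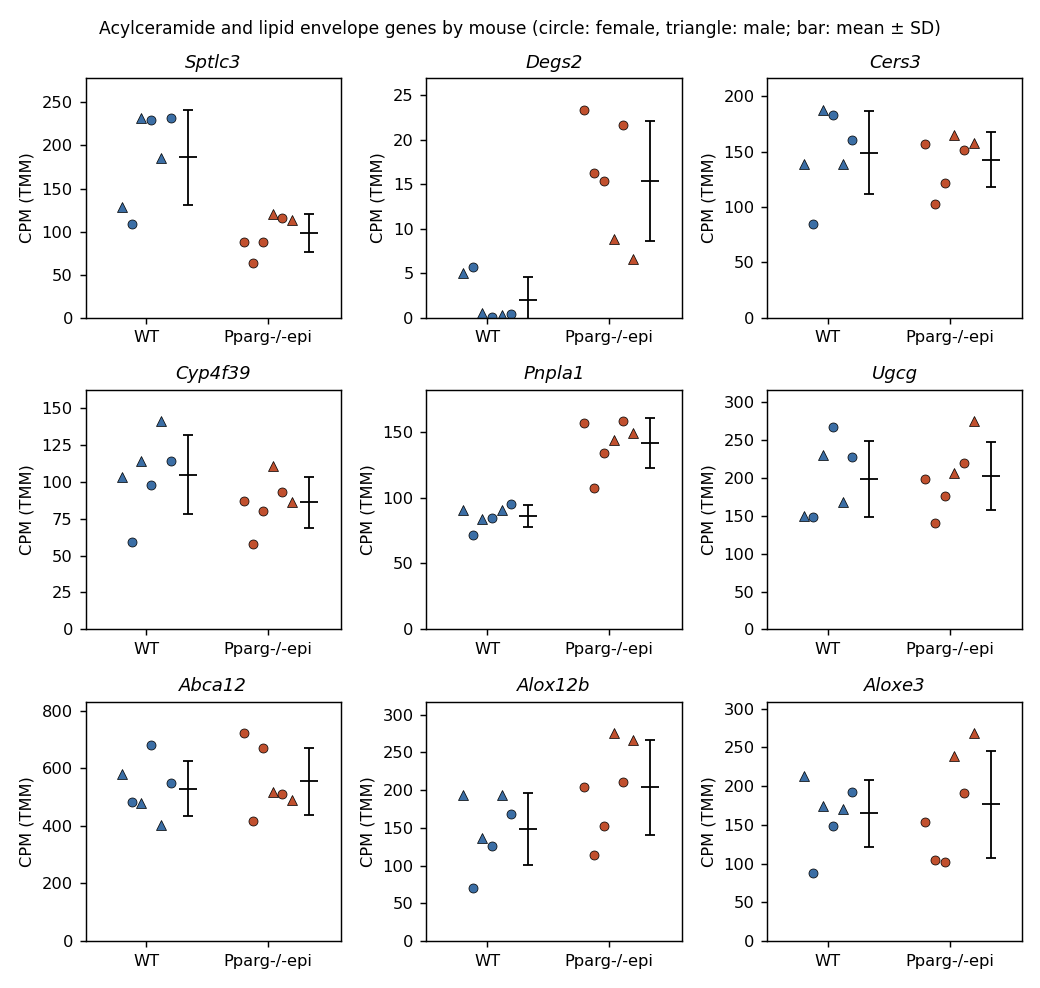
CPM after TMM scaling of the 9 genes in each mouse, in the order in which the text first lists them, with WT in blue and Pparg-/-epi in orange (circles, females; triangles, males; bars, mean ± SD, n = 6; the lower bar of WT Degs2 runs below 0 and is hidden). Degs2 and Pnpla1 are the 2 genes whose groups do not overlap, and Sptlc3 overlaps only between 109 and 121 CPM.

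**Figure D3:**
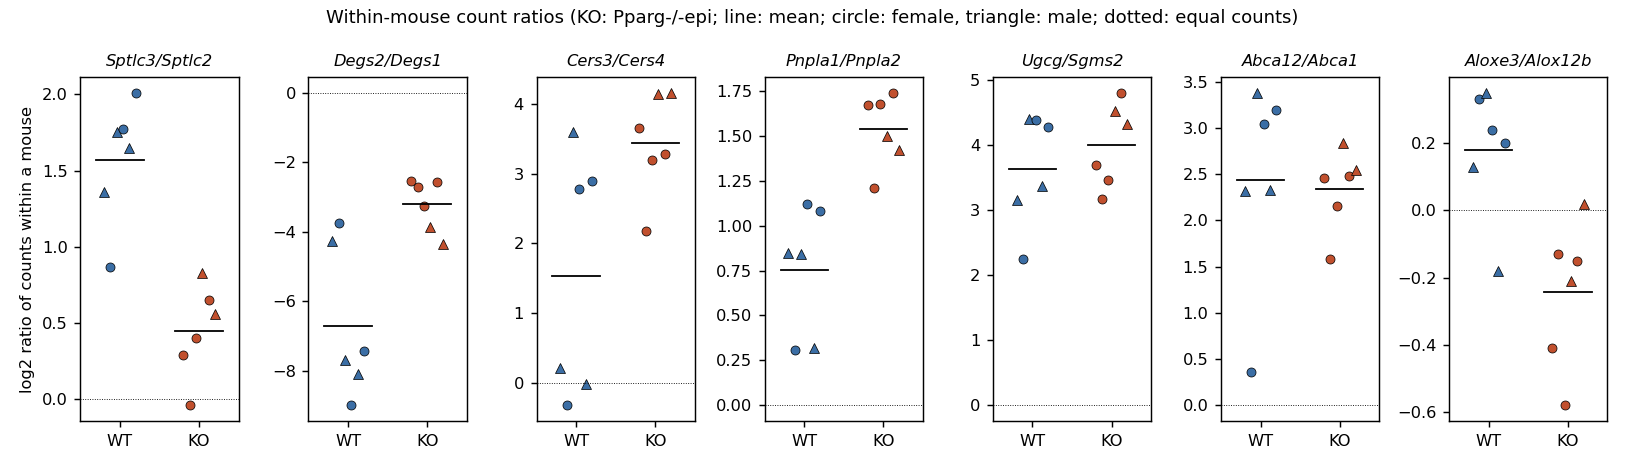
Log2 ratio of the counts of each gene to those of a related or competing enzyme, in each mouse (lines, group means; dotted line, equal counts; circles, females; triangles, males). The groups do not overlap for Sptlc3/Sptlc2 and Pnpla1/Pnpla2, where the means differ by -1.12 and 0.78.

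Per length of exon, 7 of the genes stood at similar levels in WT mice. Sptlc3 was first at 67.5 ± 20.1 RPKM, followed by Aloxe3 (64.8 RPKM), Abca12 (63.5 RPKM), Alox12b (63.0 RPKM), Ugcg (53.5 RPKM), Cers3 (45.9 RPKM) and Cyp4f39 (40.1 RPKM). Each of these overlapped the next in its range over mice. Pnpla1 (19.2 ± 1.86 RPKM) lay below Cyp4f39 without overlap, and Degs2 (0.567 ± 0.727 RPKM) below Pnpla1. Degs2 thus stood at the 8.68th percentile of the listed genes, whereas Sptlc3 stood at the 93.2nd. In Pparg-/-epi mice the order was Alox12b (86.9 RPKM), Aloxe3 (69.5 RPKM), Abca12 (66.6 RPKM), Ugcg (54.5 RPKM), Cers3 (31.7 to 50.9 RPKM over mice), Sptlc3 (35.7 RPKM), Cyp4f39 (32.8 RPKM), Pnpla1 (31.6 RPKM) and Degs2 (4.30 RPKM). Sptlc3 moved from the first place to the 6th, and Pnpla1 came to overlap Cyp4f39.

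**Figure D4:**
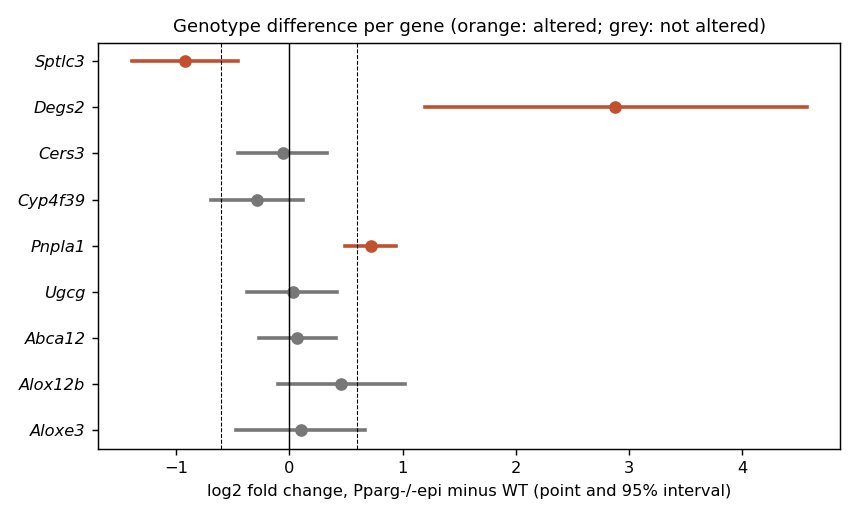
Log2 fold change of each gene, Pparg-/-epi minus WT, with its 95% interval from the edgeR fit (orange, altered; grey, not altered; dashed lines, 0.6 in either direction). Sptlc3 lies below 0, Degs2 and Pnpla1 lie above it, and the other 6 intervals include 0.

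For 5 of the 6 genes that were not altered, the 95% interval lay within 1 log2 unit on either side of 0. The exception was Alox12b, with an upper bound of 1.02. The 6 misses of the threshold do not show that these genes stayed the same. Leaving out any 1 mouse gave log2 fold changes of -0.20 to 0.02 for Cers3, -0.04 to 0.15 for Abca12, -0.08 to 0.13 for Ugcg, and -0.06 to 0.20 for Aloxe3.

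By Pearson correlation most of the 9 genes varied together between mice of the same genotype, apart from Degs2 and Abca12. After subtraction of each group's mean log2 CPM, 28 of the 36 pairs of genes correlated positively over the 12 mice, with a median Pearson correlation of 0.57. Of the 8 negative pairs, 7 held Degs2, and the other was Abca12 with Aloxe3 (-0.05). The correlations of Abca12 with the other genes reached at most 0.36 (Pnpla1). These correlations are descriptions, and each pair shares the same libraries, depth and RNA. The closest pair was Alox12b and Aloxe3 (0.92). The lowest value was between Sptlc3 and Degs2 (-0.78). By Spearman (rank) correlation several pairs were lower, such as Cers3 with Alox12b (0.38 against 0.72) and Pnpla1 with Sptlc3 (0.32 against 0.65). Others were higher, such as Cers3 with Ugcg (0.87 against 0.81). In WT replicate 2, 7 of the 9 genes were at their lowest WT level, and in Pparg-/-epi replicate 8, 7 of 9 were at their lowest Pparg-/-epi level. The same mice had the lowest summed suprabasal markers of their groups (17604 and 25673 CPM). They had the most hair follicle marker RNA of their groups as well (946 and 2644.5 CPM). The part of these cell types in the members' values, and of these mice in the correlations, was not tested. Without WT replicate 2, the number of altered genes in the table went from 1493 to 2249, Sptlc3, Degs2 and Pnpla1 kept their calls, and none of the other 6 genes gained one.

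Relative to the summed counts of Krt1 and Krt10, the main keratins of the suprabasal layers where these enzymes act, the values shifted downward for 8 of the 9 genes, and these are descriptions without a test. Sptlc3 was at -1.18 and Degs2 at 3.82 on the log2 scale. These values are differences of mean log2 ratios with no count added, unlike the edgeR estimates. Degs2 had 2 to 7 counts in WT replicates 3 to 6, so its 3.82 cannot be set beside the 2.88 of the edgeR fit. Pnpla1 was at 0.42, below the fold threshold used for CPM. Abca12 and Aloxe3 were at -0.23 each and Ugcg at -0.25. The scale moved these 8 genes by like amounts, so the change of sign of Abca12, Aloxe3 and Ugcg, which lay near 0 in CPM, is set by the scale. The share of all reads taken by Krt1 and Krt10 was 0.874% to 2.67% in WT and 1.75% to 3.18% among Pparg-/-epi mice, higher by 0.29 (log2). Krt1 averaged 3688 CPM in WT and 7469 CPM among Pparg-/-epi mice (log2 fold change 1.02, SE 0.39), without passing the threshold (adjusted p = 0.101). Krt10 was at -0.02 (SE 0.28, adjusted p = 0.983). The 0.42 of Pnpla1 was thus taken against a keratin share that was itself higher on average, not against a fixed reference.

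Of a list of 26 other genes linked to acylceramides and the lipid envelope, 25 were measured, and 4 were higher, 1 lower and 20 not altered. The list is not limited to genes that make acylceramides, since it also holds ceramidases, sphingomyelinases, lipases and phospholipases. The median log2 fold change of the list was 0.05, against -0.01 over all genes, of which 5.19% were higher and 5.08% lower. Elovl4, the elongase that makes the very long chain, was at 1012.9 ± 133 CPM in WT and 832 ± 160 CPM among Pparg-/-epi mice (SD, n = 6 each, adjusted p = 0.218). Elovl1 (-0.16 on the log2 scale), Slc27a4 (0.08), Nipal4 (-0.19), Sdr9c7 (0.03) and Ephx3 (-0.16) did not pass either. Sdr9c7 and Ephx3 encode enzymes that act on the lipoxygenase products. The 4 that rose were Pla2g4e, a phospholipase, by 2.88 log2 units (adjusted p = 0.0005), Cyp4f18, a P450 relative of Cyp4f39 with a mean of 0.175 CPM in WT, by 2.48 (adjusted p = 0.005), Lipk, an epidermal lipase, by 0.96 (adjusted p = 0.00106), and Smpd3, a sphingomyelinase, by 0.79 (adjusted p = 0.00936). Cyp4f13 fell by 0.72 (adjusted p = 0.00292).

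Most enzymes of the sphingolipid backbone were not altered. Of 28 measured genes of 30, 0 were higher, 4 lower and 24 not altered, with a median of -0.22, where 5.08% of all genes were lower. The 4 were Fa2h, a fatty acid hydroxylase that is also a sebocyte marker, at 105 CPM in WT and 0.478 CPM among Pparg-/-epi mice (adjusted p = 0.000915), Cers4, Acer3, an alkaline ceramidase, which fell by 1.10 log2 units (adjusted p = 0.0104), and Sgms1, a sphingomyelin synthase, which fell by 0.63 (adjusted p = 0.011). Kdsr, the enzyme after serine palmitoyltransferase, stood at -0.50 on the log2 scale (adjusted p = 0.031), short of the fold threshold. Of 8 measured sebocyte markers, 6 were lower, with summed CPM of 34.4 to 1083 in WT and 13.2 to 32.6 among Pparg-/-epi mice. WT replicates 1 and 2 had the highest sebocyte sums of the WT mice (629 and 1083 CPM). Their Sptlc3 was the lowest of that group (129 and 109 CPM). The part of sebocyte RNA in the fall of Sptlc3 and Cers4 was not tested.

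Genes that lengthen fatty acids counted 1 higher, 3 lower and 7 not altered among 11 measured of 12, with a median of -0.47. For this and the next lists, the shares over all genes were 5.19% higher and 5.08% lower. Elovl5 fell by 1.97, Elovl6 by 1.57 and Hacd2 by 0.61 on the log2 scale, whereas Elovl7 rose by 0.79 (adjusted p = 0.0169, 0.00165, 0.00907 and 0.0199). Elovl3, at -2.91, missed the threshold (adjusted p = 0.0637) and passed it with the likelihood ratio test of edgeR (-2.92, adjusted p = 0.016). Of 6 other lipoxygenases, 1 was higher and 2 lower. Alox12e, an epidermal relative of Alox12b, rose by 0.61 (adjusted p = 0.0447), a call that was lost with scaling by total counts (0.63, adjusted p = 0.0623), whereas Alox12 fell by 1.23 (adjusted p = 0.014) and Alox5 by 0.94 (adjusted p = 0.000942). Among 6 other PNPLA lipases 1 was lower (Pnpla5, which fell by 4.74 log2 units, adjusted p = 0.00716), and among 10 measured ABCA transporters of 11, 2 were lower (Abca5 fell by 1.76, adjusted p = 0.000942, and Abca4 fell by 1.21, adjusted p = 0.0171). Of the 6 PNPLA relatives 0 were higher, against the rise of Pnpla1, and the difference between them was not tested.

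Proteins of the cornified envelope, to which the lipid envelope is bound, counted 8 higher, 0 lower and 9 not altered among 17 measured of 19, with a median of 1.00. Over all genes 5.19% were higher and 5.08% lower. Ivl, encoding involucrin, an anchor of bound ceramides, rose by 1.00 on the log2 scale from 319 ± 25.6 to 639 ± 100 CPM (SD, n = 6 each, adjusted p = 0.000232). Casp14 rose by 1.81 (adjusted p = 0.000501), Tgm3 by 1.78 (adjusted p = 0.000621), Sprr1b by 3.65 (adjusted p = 0.00286) and Sprr2d by 3.24 (adjusted p = 0.00482). Lor was at -0.06 (adjusted p = 0.905).

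**Figure D5:**
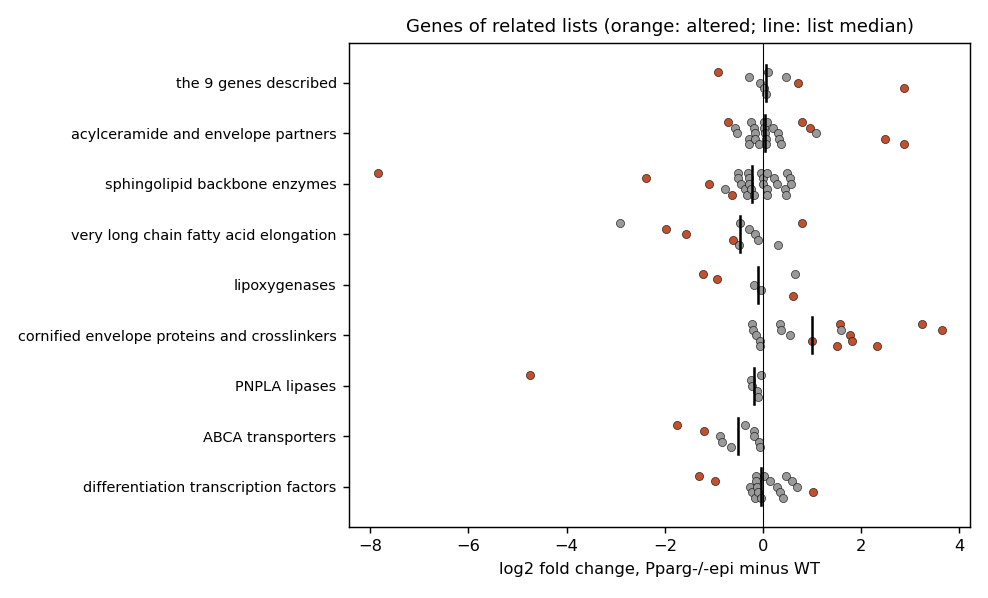
Log2 fold change, Pparg-/-epi minus WT, of every measured gene of the 9 genes described and of the 8 related lists (orange, altered; grey, not altered; vertical lines, list medians). The cornified envelope list has a median of 1.00 and the 9 genes one of 0.07.

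The other marker lists showed how mixed the scrapings were. Fibroblast markers summed to 1013.9 to 34533 CPM in WT and 5324 to 11169 CPM among Pparg-/-epi mice, and skeletal muscle markers to 10.0 to 9059 and 8.48 to 354 CPM. Altered markers numbered 0 of 6 for fibroblasts, 0 of 5 for muscle and 0 of 10 for hair follicle. They also numbered 0 of 5 for adipocytes, 0 of 5 for macrophages and neutrophils and 0 of 4 for melanocytes. The median log2 fold changes of these lists, in the same order, were -0.05, -3.81, 1.38, -0.85, 0.23 and 0.86. A missing call does not show that the amounts were equal. Of 6 basal keratinocyte markers 1 rose and 1 fell. Of the others, 1 of 5 endothelial and 1 of 4 Langerhans cell markers rose, and 1 of 4 T cell markers fell. Over all genes 5.19% were higher and 5.08% lower. The part of these cells in the values of the 9 genes was not tested.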

How the data were processed

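Dorsal epidermal scrapings of 6 WT and 6 Pparg-/-epi mice were sequenced as mRNA libraries. Per the labels and the study's methods, the authors aligned reads to mm10 with STAR 2.5.2b, excluded low-quality and multiply mapped reads and counted reads per gene with featureCounts (Subread 1.5.1). The deposited table holds raw counts per gene, and every listed gene exceeded 0.5 CPM in at least 6 libraries. The 2800 empty rows without a gene symbol were left out. Whether counting used strand is not given in the sources used here. Labels and other sheets of the study differ in age for some mice, and the labels' ages were used.

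All 14533 genes were tested with edgeR 4.0.16 (R 4.3.3), with TMM scaling, the quasi-likelihood test and adjustment of p over the whole table by the Benjamini-Hochberg method. Altered genes had an adjusted p below 0.05 and a log2 fold change of at least 0.6. The study used the likelihood ratio test of edgeR, which was an alternative here, as was DESeq2 1.42.0. Intervals are 95% intervals from the quasi-likelihood fit. Ratios of counts within a mouse (0.5 added to both) were compared by the exact permutation test over 924 splits, adjusted over 7 pairs. The fits were tested on simulated data. The sex, RIN and age coefficients were read from the planned fits with those covariates. The named genes were the 9 genes, the partners of the ratios, core pathway genes and, of each list, the most abundant and at most 5 altered genes in each direction by size of change. Of the core pathway genes, 1 is not reported here. The 9 genes and the lists were chosen with earlier results of these data known. p-values measure the spread between these mice, some of which shared a breeding number. Alternatives covered scaling, low-count filters, females alone, sex, RIN, age and earlier or later breeding number as terms, and leaving out each mouse. Promoter windows came from RefSeq (GRCm38.p6).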

Additional observations from a re-analysis of the deposited data

Results flagged for a closer look

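In WT replicate 2 the log2 ratio of Abca12 to Abca1 was 0.36, whereas the other 5 WT mice ran from 2.32 to 3.38. The gap to the nearest mouse was 0.647 of the range of the group, above the critical value of 0.625 for 6 samples. This was 1 of 32 groups examined, and chance alone marks about 1 group in 20. Abca1 was at 376 CPM in the highest WT mouse against 45.8 CPM in the lowest. WT replicate 2 also had the lowest summed suprabasal markers (17604 CPM) and the highest summed sebocyte markers (1083 CPM) of the WT mice, and their part in the value was not tested.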

How the results depend on the processing

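Of 375 values recomputed under alternatives, 333 kept their direction and side of the threshold (counts stayed within 1.5 times, and untested values on the keratin scale within 1 SD whatever their sign), 17 no longer passed, 5 moved and 20 changed sign. The likelihood ratio test, DESeq2, both other scalings, the filters and the sex, RIN and age terms left the calls of Sptlc3, Pnpla1 and Degs2 in place, except that Degs2 had no value with 10 counts required in every library. With females alone (3 against 4 mice), 651 genes were altered and 0 of the 9 genes: Pnpla1 was at 0.73 (adjusted p = 0.059), Sptlc3 at -1.11 (adjusted p = 0.0791), Degs2 at 3.18 (adjusted p = 0.109), Aloxe3 at -0.07 and Ugcg at -0.23. The log2 ratios Cers3/Cers4 and Pnpla1/Pnpla2 were then 1.29 and 0.74 (exact permutation p = 0.2 and 0.0571). Cers3 was at 0.08 with RIN as a term and at 0.09 with breeding blocks. On the Krt1 and Krt10 scale, Abca12 was at -0.23, Aloxe3 at -0.23, Ugcg at -0.25 and Pnpla1 at 0.42. The share of reads of these keratins was itself higher by 0.29 (log2) among Pparg-/-epi mice. Leaving out each mouse gave 1116 to 2249 altered genes (2249 without WT replicate 2) and 2 to 3 of the 9 genes. The log2 fold changes were -0.20 to 0.02 for Cers3, -0.04 to 0.15 for Abca12, -0.06 to 0.20 for Aloxe3, -0.08 to 0.13 for Ugcg and 2.64 to 3.51 for Degs2. The ratios were 1.54 to 2.32 for Cers3/Cers4, unadjusted p past 0.05 in 8 of 12, and -0.51 to 0.10 for Abca12/Abca1. The cause of these shifts was not tested, beyond the fewer mice in a fit. Depth limits Degs2 most, with 2 to 7 counts in 4 WT libraries. No paired analysis was possible because the groups share no replicate numbers and only 1 breeding number.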

Other observations

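Transcription factors of keratinocyte differentiation counted 1 higher, 2 lower and 16 not altered among 19 measured, with a median log2 fold change of -0.04. The shares over all genes were 5.19% higher and 5.08% lower. Vdr, the vitamin D receptor, rose by 1.01 on the log2 scale from 132 ± 51.9 to 266 ± 53.9 CPM (SD, n = 6 each, adjusted p = 0.012). Gata3 fell by 0.98 (adjusted p = 0.0238) and Ppara, a nuclear receptor of the PPAR family, by 1.31 from 34.2 ± 4.65 to 13.8 ± 2.38 CPM (adjusted p = 0.000167). Klf4, the most abundant of the list per length, was at -0.04 (adjusted p = 0.951).

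Outside all lists, the genes whose group-centred log2 CPM was closest to the mean of the 9 genes over the 12 mice were Rnf225 (Pearson correlation 0.97), Ceacam19 (0.96), Kprp (0.96), Klk9 (0.96) and Sept8 (0.96), of 9696 genes at a mean of 10 CPM or more. These mice share their libraries, so the values are a description. The Spearman (rank) correlations of these genes, in the same order, were 0.71, 0.84, 0.78, 0.76 and 0.92. Klk9, a kallikrein, rose by 0.92 log2 units (adjusted p = 0.0208), and the other 4 were not altered.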
